A study of Mus musculus with 36 samples.

Results

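Of the 54842 genes in the count table, 10 encode the enzymes and core cofactors that methylate lysine 9 of histone H3 (H3K9) and lysine 20 of histone H4 (H4K20). They were taken by symbol from a list that was drawn up with earlier results of these data known. The list holds Suv39h1, Suv39h2, Setdb1, Ehmt1, Ehmt2, Trim28 and Atf7ip for H3K9, and Kmt5a, Kmt5b and Kmt5c for H4K20. RNA of all 10 was measured by sequencing ribosome-depleted total RNA of mouse embryonic fibroblasts (MEF cells) in 36 libraries, 12 groups of 3 biological replicates. In the MSR-dCas9-Activator line a catalytically dead Cas9 fused to the VPR activation domain was targeted to the major satellite repeats (MSR) of pericentric heterochromatin, and in the MSR-dCas9-Control line dCas9 carried no effector domain. Each line was sampled uninduced, after induction with doxycycline (dox) at 10 ng/ml, and at 4 times once dox was withdrawn (3, 6, 12 and 24 h). Dox was given for 6 h to MSR-dCas9-Activator cells but for 24 h to MSR-dCas9-Control cells, so the length of dox exposure and the effector cannot be told apart after induction. Both lines carried the guide RNA from a constitutive promoter on the same PiggyBac plasmid as the dox-inducible effector, in the uninduced groups too, and the uninduced lines are therefore not parental MEF cells.

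Methylation of H3K9 and H4K20 is laid down in steps. Ehmt1 and Ehmt2 form a heterodimer that makes the lower methylation states of H3K9 in euchromatin, Setdb1 trimethylates H3K9 at silenced retrotransposons and genes with Trim28 as its recruiter and Atf7ip as its stabilising partner, and Suv39h1 and Suv39h2 trimethylate H3K9 at pericentric repeats. HP1 proteins bind that mark and bring in Kmt5b and Kmt5c, which convert the H4K20 monomethylation made by Kmt5a into the higher states, and H3K9 and H4K20 trimethylation together are the classic marks of mouse pericentric heterochromatin.

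Each library held from 27376846 to 57371803 counts in genes (median 42865961). Transcripts of GSAT_MM, the major satellite family, made up 0.00178% to 0.00396% of all counts in the MSR-dCas9-Control line after induction. In the MSR-dCas9-Activator line they made up 0.189% to 2.78%, so the labels of the lines matched the repeat they target. Uninduced libraries held 0.00263% to 0.00301% in the MSR-dCas9-Control line and 0.0043% to 0.00804% in the MSR-dCas9-Activator line. The uninduced MSR-dCas9-Activator cells are therefore a baseline in which MSR RNA was already higher. The summed level of 10 fibroblast markers at 12 h was 16247 to 19692 CPM (counts scaled to the library total) in the MSR-dCas9-Activator line and 23358 to 24868 in the MSR-dCas9-Control line, with no marker at 0. Summed markers of other cell types at 12 h were far below the fibroblast sum in both lines, and differed between them. The 4 endothelial markers at 12 h summed to 36 to 42.1 CPM in the MSR-dCas9-Activator line against 0.590 to 0.816 in the MSR-dCas9-Control line, the 5 leukocyte markers to 8.12 to 10.9 against 4.69 to 5.47, the 5 epithelial markers to 2.65 to 3.57 against 0.530 to 0.710, and the 4 pluripotent cell markers to 1.73 to 3.64 against 0.330 to 0.571. The 7 markers of liver, neuron, glia and muscle summed to 30.8 to 48.1 against 52.7 to 57.5. That sum hides opposite directions. In mean normalised counts at 12 h, Alb (281 against 0), Gfap (231 against 10.5) and Acta1 (90.3 against 34.6) were higher in the MSR-dCas9-Activator line. Mbp (724 against 1416), Tubb3 (243 against 764) and Afp (19.6 against 138) were lower there. Of the endothelial markers, Pecam1 had 1205 against 11.6 and Tek 446 against 10.3. In the MSR-dCas9-Control line at 12 h Adgre1, Cd3e, Epcam, Krt5, Sox2, Zfp42, Alb and Myh1 of these lists were at 0, and in the MSR-dCas9-Activator line none was. The part of these shifts in the results was not tested. Replicate 2 of the MSR-dCas9-Activator line stood apart for several of the 10 genes, as given beside each.

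Promoter sequence is shown for the 3 genes with the largest falls and for Trim28, whose log2 fold change between the lines stayed between −0.18 and 0.17 with TMM scaling. The sequences are the 250 bases before the transcription start from RefSeq (GRCm38.p6), 5′ to 3′ on the gene's own strand. Capitals mark GC boxes (GGGCGG), the pentamer of CCAAT boxes and E2F motifs (TTTCCCGC or TTTGGCGC), searched on both strands, with a match on the other strand capitalised as its reverse complement.
Suv39h1 (chrX:8074761-8075010, minus strand): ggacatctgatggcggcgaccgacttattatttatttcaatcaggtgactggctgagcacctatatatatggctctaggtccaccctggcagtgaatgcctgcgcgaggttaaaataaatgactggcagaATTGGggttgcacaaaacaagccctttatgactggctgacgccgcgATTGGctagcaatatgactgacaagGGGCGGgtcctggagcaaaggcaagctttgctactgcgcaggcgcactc
Setdb1 (chr3:95357203-95357452, minus strand): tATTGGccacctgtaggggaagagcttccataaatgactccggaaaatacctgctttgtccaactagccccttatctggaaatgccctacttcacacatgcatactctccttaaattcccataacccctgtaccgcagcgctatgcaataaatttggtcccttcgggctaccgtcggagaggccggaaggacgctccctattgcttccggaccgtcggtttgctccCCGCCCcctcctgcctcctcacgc
Kmt5c (chr7:4739877-4740126, plus strand): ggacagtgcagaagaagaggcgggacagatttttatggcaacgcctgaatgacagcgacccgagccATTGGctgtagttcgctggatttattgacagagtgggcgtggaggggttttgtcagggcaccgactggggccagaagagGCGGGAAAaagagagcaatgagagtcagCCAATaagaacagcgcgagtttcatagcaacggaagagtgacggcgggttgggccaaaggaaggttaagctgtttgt
Trim28 (chr7:13023902-13024151, plus strand): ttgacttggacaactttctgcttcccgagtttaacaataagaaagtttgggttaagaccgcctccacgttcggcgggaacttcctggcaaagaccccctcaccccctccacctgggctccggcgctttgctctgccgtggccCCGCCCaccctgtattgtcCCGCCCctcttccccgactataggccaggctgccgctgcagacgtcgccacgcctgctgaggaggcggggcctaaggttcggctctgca

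RefSeq listed 15 promoters for the 10 genes, and 14 of them (93.3%) held a GC box, as did 32.7% of 32851 promoters of the same length. Of the 15, only the Kmt5c promoter lacked it. A CCAAT box was in 7 (46.7%, against 33.8% of all), the E-box CACGTG in 2 (13.3%, against 6.02%), and TATAAA in 0 (against 12.4%). The Kmt5c promoter was the only one with an E2F motif (6.67%, against 1.3% of all). A match in these letters is a description and says nothing of binding.

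Levels were compared between genes as CPM per kb of merged exon, since longer transcripts give more counts. In uninduced MSR-dCas9-Control cells the highest of the 10 was Trim28 (KAP1), the corepressor that ties KRAB zinc finger proteins to Setdb1, at 72.4 ± 1.56 CPM per kb (SD, n = 3). Kmt5a, the sole H4K20 monomethyltransferase, followed at 39.6 ± 3.00 and Ehmt2 (G9a) at 32.4 ± 2.46. Setdb1 (14.3 ± 0.463), Suv39h1 (12.7 ± 0.395) and Ehmt1 (12.2 ± 0.0256) lay close together, and each was above the next in all libraries by this length. Suv39h2 (5.04 ± 0.353), Kmt5c (4.67 ± 0.313), Atf7ip (4.13 ± 0.328) and Kmt5b (3.79 ± 0.169) were lowest, and neither Suv39h2 and Kmt5c nor Atf7ip and Kmt5b differed beyond the spread of their libraries. With the longest annotated transcript as length, Trim28, Kmt5a and Ehmt2 stayed in this order and Suv39h1 (21.5) came above Setdb1 (17.3). Kmt5b (9.13) came above Kmt5c (6.74), while Suv39h2 became the lowest at 5.13 CPM per kb and Atf7ip rose to 10.6, as its merged exons span 20726 bases and its longest transcript 8059.

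**Figure D1:**
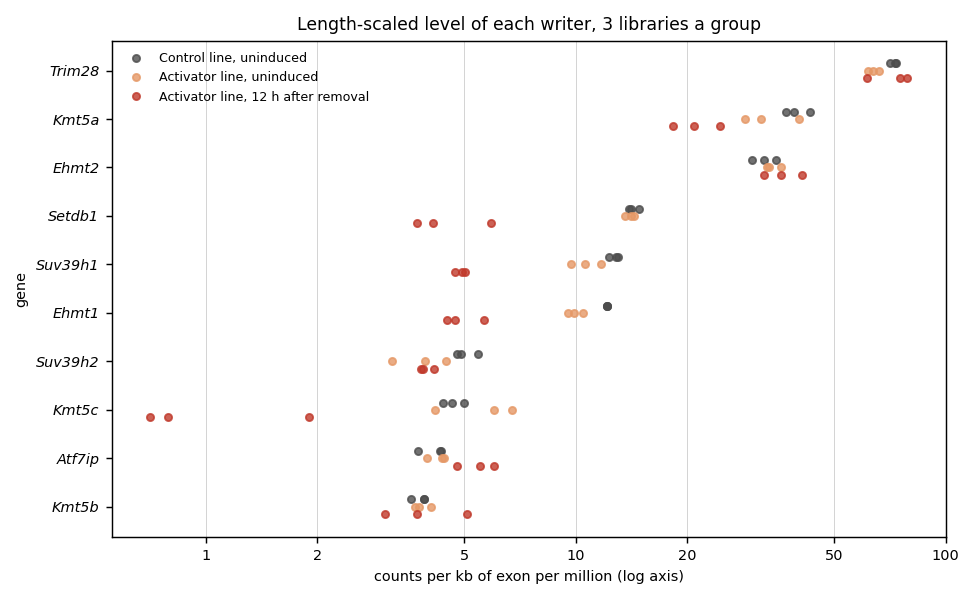
Level of each of the 10 genes in CPM per kb of exon on a log axis, each point 1 library, in uninduced MSR-dCas9-Control, uninduced MSR-dCas9-Activator and 12 h MSR-dCas9-Activator cells (3 libraries each). Trim28 lies near 72.4 CPM per kb in uninduced MSR-dCas9-Control cells, and at 12 h the points of Suv39h1, Setdb1, Ehmt1, Kmt5a and Kmt5c lie to the left of both uninduced groups.

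The comparison between the lines at each time point asked which of the 10 genes changed when MSR transcription was activated. Before induction none of the 10 passed an adjusted p-value of 0.05 (edgeR quasi-likelihood test, Benjamini-Hochberg over 28536 genes), where 0.883% of all genes passed as higher with the activator and 0.343% as lower. At an unadjusted p under 0.05 there were 5, Suv39h1, Suv39h2, Ehmt1, Trim28 and Kmt5a, all lower in the MSR-dCas9-Activator line, beside 4.57% of all genes lower at that p. DESeq2 called 3 of them as lower, Suv39h1, Suv39h2 and Ehmt1, beside 0.708% of all genes. After induction 6 were lower and 0 higher, beside 25.5% of all genes lower and 31.7% higher. The 3 h libraries gave 7 lower and 1 higher (31.4% and 39.6% of all genes) and those of 6 h again 7 and 1 (33.3% and 40.8%). For 12 h the numbers were 6 and 1 (34.1% and 41.1%), and for 24 h 7 and 2 (29.4% and 34.5%). Suv39h1, Suv39h2, Setdb1, Ehmt1, Kmt5a and Kmt5c were lower at all 5 time points from induction on. Fitted to the compared libraries alone, Suv39h2 at 24 h (edgeR adjusted p = 0.172) and Kmt5a at 3 and 6 h (0.0976 and 0.0690) did not pass.

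The median log2 fold change of the 10 was −0.10 before induction, −0.41 after it, and −0.46, −0.64, −0.71 and −0.50 at 3, 6, 12 and 24 h, where the median of all genes tested was 0.03, 0.10, 0.16, 0.13, 0.12 and 0.01. The libraries of the lines did not overlap for 4 of the 10 before induction (16.5% of all genes), 6 after it (57.9%), and 9, 7, 7 and 9 at 3, 6, 12 and 24 h (71.4%, 69.0%, 73.5% and 61.6%). By the limits the study used for genes, a mean above 100 counts, a change above 2-fold and an adjusted p under 0.05, the numbers lower were 0, 1, 2, 3, 4 and 3, beside 0.021%, 5.71%, 9.45%, 10.3%, 10.9% and 4.12% of all genes, and 0 of the 10 were higher at any time, beside 0.193%, 2.78%, 3.39%, 3.6%, 4.29% and 3.34% of all genes. In such bulk RNA, fewer cells that express a gene and less RNA per cell cannot be told apart.

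**Figure D2:**
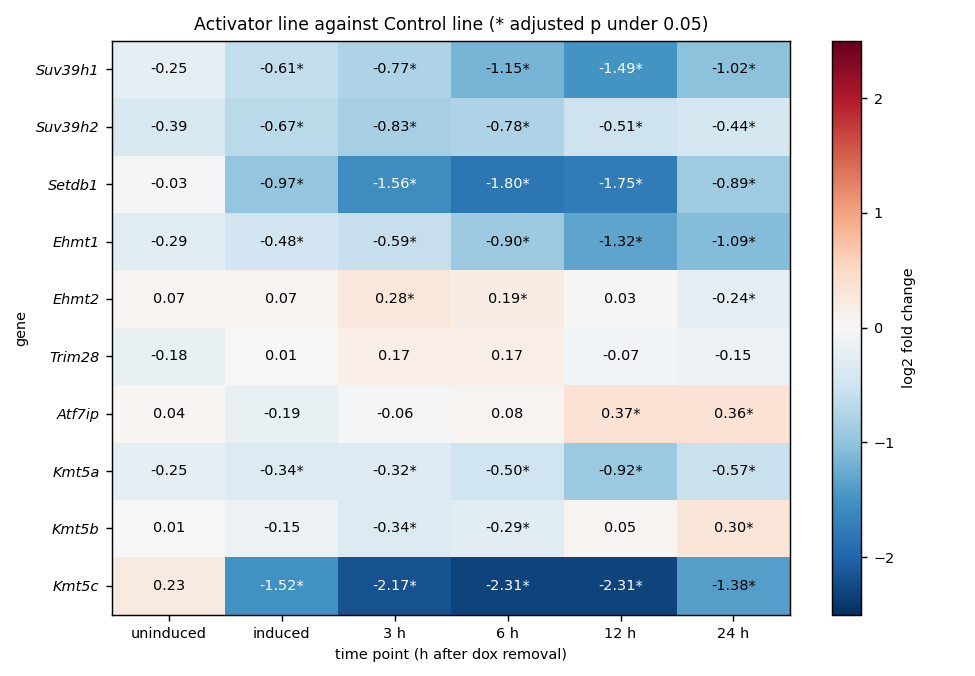
Log2 fold change of MSR-dCas9-Activator against MSR-dCas9-Control for the 10 genes (rows) at the 6 time points (columns), from a single edgeR fit of 36 libraries. Asterisks mark an adjusted p under 0.05, blue is lower and red higher, and Kmt5c and Setdb1 show the deepest falls, to −2.31 and −1.80.

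These fold changes rest on TMM scaling, which sets most genes near no change. Scaled to the 13 mitochondrially encoded mRNAs instead, the median of all genes at 12 h moved from 0.12 to −0.54, and the median of the 10 from −0.71 to −1.32. Relative to all genes the 10 lay 0.83 lower with TMM and 0.78 lower with mitochondrial scaling. Of all genes at 12 h, 11728 were higher and 9728 lower with TMM, and 7474 and 13886 of the 27874 genes tested with mitochondrial scaling. Mitochondrial mRNAs held 1.97% to 3.6% of gene counts in the MSR-dCas9-Activator line after induction and 1.45% to 2.56% in the MSR-dCas9-Control line. The falls of Suv39h1, Suv39h2, Setdb1, Ehmt1, Kmt5a and Kmt5c from induction on kept their direction under TMM, RLE, plain library size and mitochondrial scaling, and the rises of Ehmt2 at 3 and 6 h and of Atf7ip at 12 h did not.

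**Figure D3:**
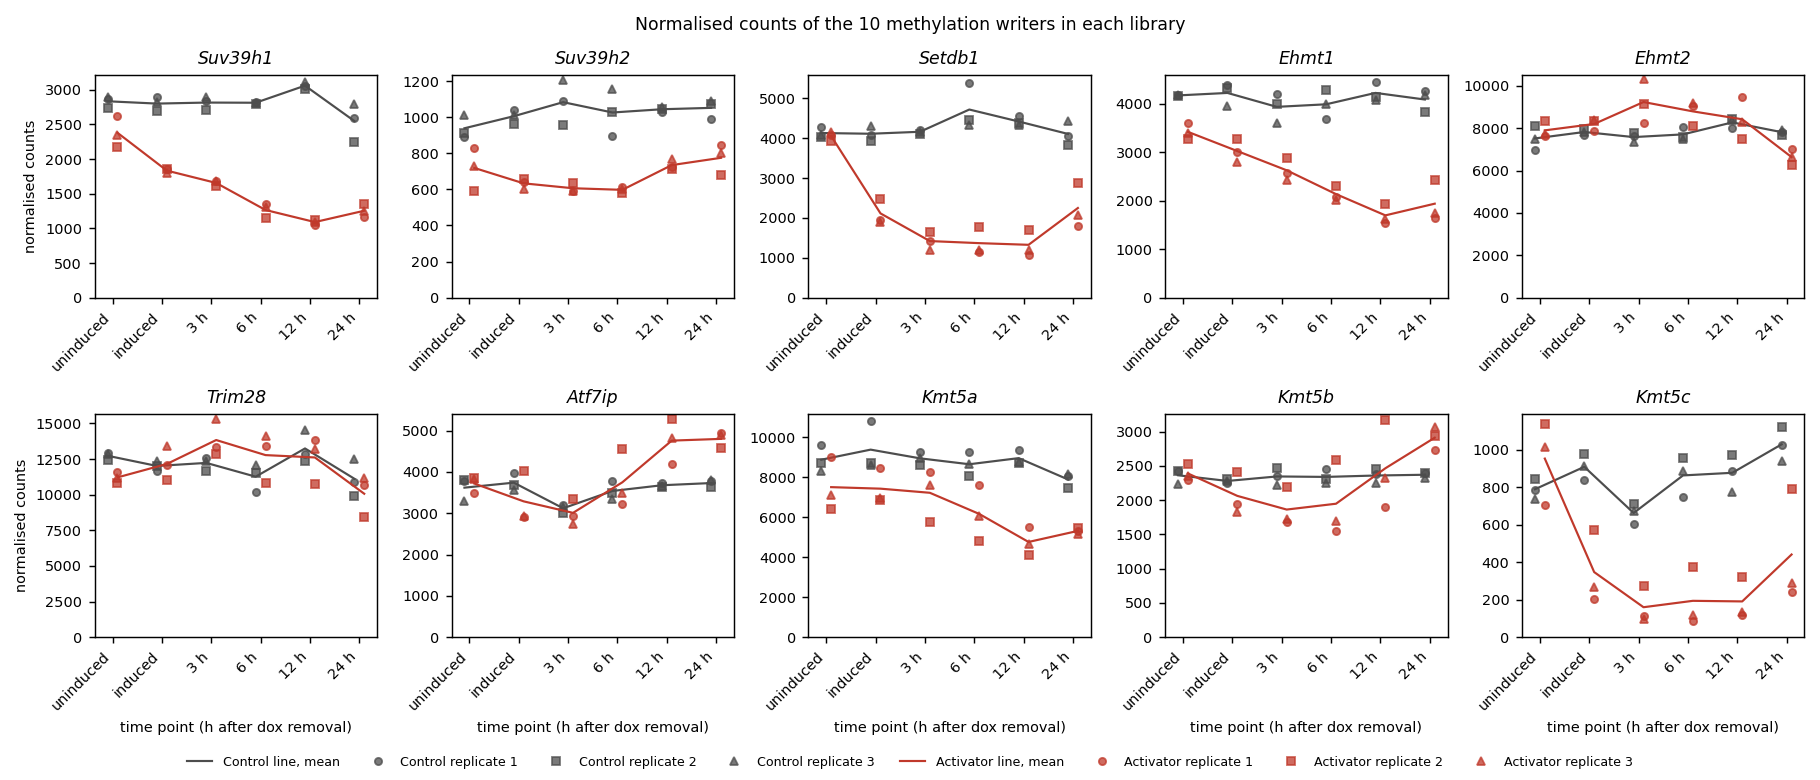
Normalised counts (TMM, y axis from 0) of each gene in every library, with the time points in order on the x axis, MSR-dCas9-Control in grey and MSR-dCas9-Activator in red. Circles, squares and triangles are replicates 1, 2 and 3, lines join group means, and the red squares of Kmt5c, Setdb1 and Ehmt1 lie above the other red points after induction.

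Suv39h1, the main H3K9 trimethylating enzyme of pericentric heterochromatin (chrX:8061171-8074760, GRCm38, minus strand), fell stepwise to 12 h. In normalised counts, the libraries of replicates 1, 2 and 3 held 2871, 2733 and 2897 in uninduced MSR-dCas9-Control cells and 2615, 2168 and 2354 in uninduced MSR-dCas9-Activator cells. At 12 h they held 3047, 3014 and 3116 in the MSR-dCas9-Control line and 1054, 1120.3 and 1098 in the MSR-dCas9-Activator line. All MSR-dCas9-Activator libraries were below all MSR-dCas9-Control libraries at every time point, and the SD of the 12 h MSR-dCas9-Activator libraries was 33.9 counts. Its log2 fold change was −0.25 before induction, −0.61 after it and −0.77, −1.15, −1.49 and −1.02 at 3, 6, 12 and 24 h (SE 0.075 to 0.077), with an edgeR adjusted p of 0.102 before induction and 2.46e-15 at 12 h. Without MSR-dCas9-Activator replicate 1 the difference before induction was −0.32 with an edgeR adjusted p of 0.0416. The level at 12 h was 35.7% of that in the MSR-dCas9-Control line.

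Gm14820, an antisense RNA that shares 767 bases (14.6%) of the merged exons of Suv39h1, had log2 fold changes of −0.60, −0.91, −1.28, −1.46 and −0.96 from induction to 24 h. It held 14594 counts over all libraries against 79319 for Suv39h1. The kit marks strand, but the strand setting of the counting is not given in the sources used here, so reads of this overlap could have been counted for either gene.

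Suv39h2, the second H3K9 trimethylating enzyme of these repeats (chr2:3455815-3475031, minus strand), had its deepest fall earlier. Its normalised counts at 3 h came to 1088, 957 and 1205 in the MSR-dCas9-Control line and 590.2, 637 and 591 in the MSR-dCas9-Activator line, and at 12 h 1029, 1046 and 1056 against 722, 711 and 770.3. The groups did not overlap at any time point, uninduced cells included. Between the lines the log2 fold change was −0.39 before induction (SE 0.101, edgeR adjusted p = 0.0526), −0.67 after it, and −0.83, −0.78, −0.51 and −0.44 at 3, 6, 12 and 24 h. Without replicate 1 the difference before induction was −0.54 with an edgeR adjusted p of 0.0304, and without replicate 2 that at 24 h was −0.22 with 0.0775. Dclre1c, which shares 8.10% of the exon bases of Suv39h2 on the opposite strand, had log2 fold changes of −0.29 at 3 h and −0.02 at 12 h.

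The paralogues thus parted with time, and a ratio taken within a library does not depend on any scaling. Suv39h1 exceeded Suv39h2 per kb by 2.39 to 2.70 times in uninduced MSR-dCas9-Control libraries and by 2.41 to 2.48 times at 12 h. MSR-dCas9-Activator libraries had ratios of 2.63 to 3.06 uninduced and 1.19 to 1.32 at 12 h. The lines differed in this ratio by −0.98 (log2) at 12 h, −0.38 at 6 h and −0.57 at 24 h, with no overlap and an exact two-sided permutation p of 0.1, the smallest that 3 against 3 allows. After induction the difference was 0.06 in the other direction, again with no overlap (exact permutation p = 0.1), and at 3 h it was 0.07 and the groups overlapped (exact permutation p = 0.5).

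Setdb1 (chr3:95323525-95357202, minus strand), the H3K9 methyltransferase that silences endogenous retroviruses, showed no detectable difference between the uninduced lines and fell within the induction period. Uninduced libraries held 4283, 4027 and 4086 normalised counts in the MSR-dCas9-Control line and 4091, 3925 and 4157 in the MSR-dCas9-Activator line. After induction the MSR-dCas9-Activator libraries held 1954, 2483 and 1908, and at 12 h 1077, 1708 and 1194 against 4565, 4377 and 4321. The groups overlapped before induction and at no later time. Setdb1 had a log2 fold change of −0.03 before induction (95% interval −0.31 to 0.25), −0.97 after it, and −1.56, −1.80, −1.75 and −0.89 at 3, 6, 12 and 24 h (SE 0.143 to 0.148, edgeR adjusted p = 1.63e-11 at 6 h).

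Replicate 2 was the highest of the 3 MSR-dCas9-Activator libraries for Setdb1 at all 5 time points from induction on, and without it the value at 12 h was −1.88. Gm4349 holds 7.72% of the 50-base words of Setdb1 in the same orientation, and averaged 30.4 normalised counts over all libraries. Its log2 fold change was −1.32 at 3 h and −0.88 at 12 h.

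Atf7ip (chr6:136506167-136610862, plus strand), which protects Setdb1 protein and carries it into the nucleus, passed as higher at 12 and 24 h and as lower at no time point with TMM scaling. At 12 h it held 3737, 3625 and 3667 normalised counts in the MSR-dCas9-Control line and 4179.6, 5271 and 4818 in the MSR-dCas9-Activator line, with no overlap. For Atf7ip the log2 fold change was 0.37 at 12 h and 0.36 at 24 h (SE 0.106, edgeR adjusted p = 0.00268 and 0.00382), but −0.24 at 12 h with mitochondrial scaling. Without replicate 3 the edgeR adjusted p was 0.0648 at 12 h and 0.0748 at 24 h. From before induction to 6 h it ran from −0.19 to 0.08 with no adjusted p under 0.05. Without MSR-dCas9-Activator replicate 2 it was −0.31 after induction (edgeR adjusted p = 0.0236), and DESeq2 gave 0.25 at 6 h (adjusted p = 0.028).

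Trim28 (chr7:12999114-13031035, plus strand) passed the edgeR test between the lines at no time point in the fit of all 36 libraries with TMM scaling. Its normalised counts at 12 h came to 12853, 12365 and 14509 in the MSR-dCas9-Control line and 13866, 10769.9 and 13195 in the MSR-dCas9-Activator line, which overlapped. The log2 fold change stayed between −0.18 and 0.17, and at 12 h it was −0.07 with a 95% interval of −0.24 to 0.10. At 3 and 6 h it was 0.17 at both (edgeR adjusted p = 0.0699 and 0.0677), and without replicate 2 it was 0.40 and 0.47 with edgeR adjusted p of 0.00028 and 4.53e-05. DESeq2 called both as higher, at 0.31 and 0.35 (adjusted p = 0.00286 and 0.000644), and without replicate 2 the value after induction was 0.25 (edgeR adjusted p = 0.0204). With mitochondrial scaling the values at 3 and 6 h were negative, −0.43 and −0.54. Replicate 2 was the lowest MSR-dCas9-Activator library for Trim28 at all 5 of these time points.

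The ratio of Setdb1 to its partners therefore changed. Setdb1 exceeded Atf7ip per kb by 3.56 to 3.69 times in the MSR-dCas9-Control line at 12 h, and the ratio was 0.749 to 0.980 in the MSR-dCas9-Activator line. With the longest transcript as length these ratios were 1.68 to 1.74 and 0.353 to 0.462, while a difference between the lines does not depend on the length. The difference between the lines was −2.13 (log2) at 12 h and −0.07 before induction. Against Trim28 it was 0.16 before induction, −1.98 at 6 h and −0.75 at 24 h, and the groups did not overlap at any of the 6 time points (exact permutation p = 0.1 each).

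Ehmt1 (GLP, chr2:24789928-24919614, minus strand) and Ehmt2 (G9a, chr17:34898469-34914052, plus strand), the subunits of the H3K9 mono- and dimethyltransferase, went apart. Ehmt1 held 4455, 4139.8 and 4070.3 normalised counts in the MSR-dCas9-Control line at 12 h and 1539, 1934 and 1617 in the MSR-dCas9-Activator line. Its groups did not overlap at any time, uninduced cells included (4177, 4160.2 and 4173 against 3597, 3271 and 3388). Ehmt1 had a log2 fold change of −0.29 before induction (SE 0.097, edgeR adjusted p = 0.188), −0.48 after it, and −0.59, −0.90, −1.32 and −1.09 at 3, 6, 12 and 24 h (SE 0.099, edgeR adjusted p = 2e-12 at 12 h). As for Setdb1, replicate 2 was the highest MSR-dCas9-Activator library at all 5 times, and without it the value at 12 h was −1.34.

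Ehmt2 moved little, and not in 1 direction. At 3 h it held 7646, 7767 and 7343 normalised counts in the MSR-dCas9-Control line and 8263, 9126 and 10336 in the MSR-dCas9-Activator line, and at 24 h 7846, 7689 and 7919.7 against 7011, 6252 and 6658. The groups did not overlap at either time, higher in the MSR-dCas9-Activator line at 3 h and lower at 24 h. The log2 fold change was 0.28 at 3 h and 0.19 at 6 h (edgeR adjusted p = 0.00385 and 0.0437), but −0.32 and −0.53 with mitochondrial scaling, 0.03 at 12 h and −0.24 at 24 h (edgeR adjusted p = 0.0162). Without replicate 3 none of these passed, with edgeR adjusted p of 0.265 at 3 h, 0.379 at 6 h and 0.157 at 24 h. Without replicate 1 that at 6 h was 0.0715, and without replicate 2 that at 24 h was 0.444 at a value of −0.08. DESeq2 gave 0.24 at 12 h (adjusted p = 0.017) and −0.08 at 24 h (adjusted p = 0.444).

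Per kb, Ehmt1 was 0.347 to 0.406 times Ehmt2 in uninduced MSR-dCas9-Control libraries and 0.265 to 0.319 times in uninduced MSR-dCas9-Activator libraries, a log2 difference of −0.36 already before induction. At 12 h the ratios were 0.327 to 0.377 and 0.110 to 0.175, a log2 difference of −1.34. The groups did not overlap at any of the 6 time points (exact permutation p = 0.1 each).

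Kmt5a (Set8, chr5:124439930-124462308, plus strand), whose product is needed in mitosis and is degraded in S phase, fell late. Its normalised counts at 12 h came to 9363, 8745 and 8787 in the MSR-dCas9-Control line and 5512, 4114 and 4681 in the MSR-dCas9-Activator line. The groups overlapped before induction and at no later time. Kmt5a had a log2 fold change of −0.25 before induction (edgeR adjusted p = 0.294), −0.34 after it, and −0.32, −0.50, −0.92 and −0.57 at 3, 6, 12 and 24 h (SE 0.098, edgeR adjusted p = 2.16e-09 at 12 h). Without replicate 2 it was −0.17 after induction (edgeR adjusted p = 0.131), 0.01 at 3 h (0.940), −0.23 at 6 h (0.0318) and −0.75 at 12 h (9.46e-08). Without replicate 3 the edgeR adjusted p after induction was 0.0804 at −0.35. The value at 3 h rests on replicate 2, whose MSR-dCas9-Activator library held 5783 against 8284 and 7623, and with RLE size factors it was −0.19 (edgeR adjusted p = 0.101).

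Kmt5b (Suv420h1, chr19:3767421-3818303, plus strand), which makes H4K20 dimethylation in most of the genome, was first lower and then higher than in the MSR-dCas9-Control line. At 3 h it held 2349.6, 2468 and 2222 normalised counts in the MSR-dCas9-Control line and 1678, 2193 and 1719.9 in the MSR-dCas9-Activator line, and at 24 h 2401, 2391 and 2322 against 2732, 2930.2 and 3075. The log2 fold change was −0.34, −0.29, 0.05 and 0.30 at 3, 6, 12 and 24 h (SE 0.119 to 0.120, edgeR adjusted p = 0.0126, 0.0332, 0.728 and 0.0314). With mitochondrial scaling the value at 12 h was −0.54. These calls changed when replicates were left out. Without replicate 3 the edgeR adjusted p was 0.137, 0.290 and 0.312 at 3, 6 and 24 h, and without replicate 1 it was 0.107 at 3 h and 0.525 at 6 h. At 12 h, without MSR-dCas9-Activator replicate 1 the value was 0.29 (edgeR adjusted p = 0.0401). With DESeq2 neither of the early falls passed (adjusted p = 0.119 and 0.416), and the value for 12 h was 0.26 (adjusted p = 0.0463). Gm16066, an antisense RNA over 6.28% of the exon bases of Kmt5b, had log2 fold changes of −1.09, −0.55, 0.54 and 0.88 at those times. The strand of the counting bears on it as on Suv39h1.

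Kmt5c (Suv420h2, chr7:4740115-4747514, plus strand), the H4K20 trimethylating enzyme of pericentric heterochromatin, had the largest fall of the 10. Uninduced libraries held 784, 846 and 740.3 normalised counts in the MSR-dCas9-Control line and 705, 1138 and 1017 in the MSR-dCas9-Activator line. After induction the MSR-dCas9-Activator libraries held 205, 572 and 266 against 838, 978 and 913, at 6 h 86.7, 376 and 120.3 against 747, 955 and 889, and at 12 h 119, 321 and 133 against 889, 971 and 773. The groups overlapped only before induction. Replicate 2 was the highest MSR-dCas9-Activator library at all 5 later times, and it was also the highest MSR-dCas9-Control library at those times.

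The log2 fold change of Kmt5c was 0.23 before induction (95% interval −0.37 to 0.83), −1.52 after it, −2.17 at 3 h, −2.31 at 6 and 12 h and −1.38 at 24 h (SE 0.316 to 0.335 from induction on, edgeR adjusted p = 0.000273 after induction and 1.21e-06 at 12 h). Its level at 6 h was 20.1% of that in the MSR-dCas9-Control line. Without replicate 2 the values for 6, 12 and 24 h were −2.83, −2.63 and −1.76, and without replicate 1 they were −2.01, −2.00 and −1.04, each with an edgeR adjusted p under 0.05. Its SE was the widest of the 10, and its 95% interval at 12 h ran from −2.97 to −1.65.

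The ratio of Kmt5b to Kmt5c rose in the MSR-dCas9-Activator line. Per kb of merged exon, Kmt5b was 0.778 to 0.840 times Kmt5c in uninduced MSR-dCas9-Control libraries and 0.603 to 0.880 times in uninduced MSR-dCas9-Activator libraries. At 12 h the ratio was 0.685 to 0.787 in the MSR-dCas9-Control line and 2.68 to 4.71 in the MSR-dCas9-Activator line. With the longest transcript as length Kmt5b was above Kmt5c in every library of these groups, with medians of 1.37 times in the MSR-dCas9-Control line and 1.05 times in the MSR-dCas9-Activator line uninduced, and 1.21 and 7.21 times at 12 h. The lines differed by 2.37 (log2) at 12 h and by −0.23, with overlap, before induction.

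**Figure D4:**
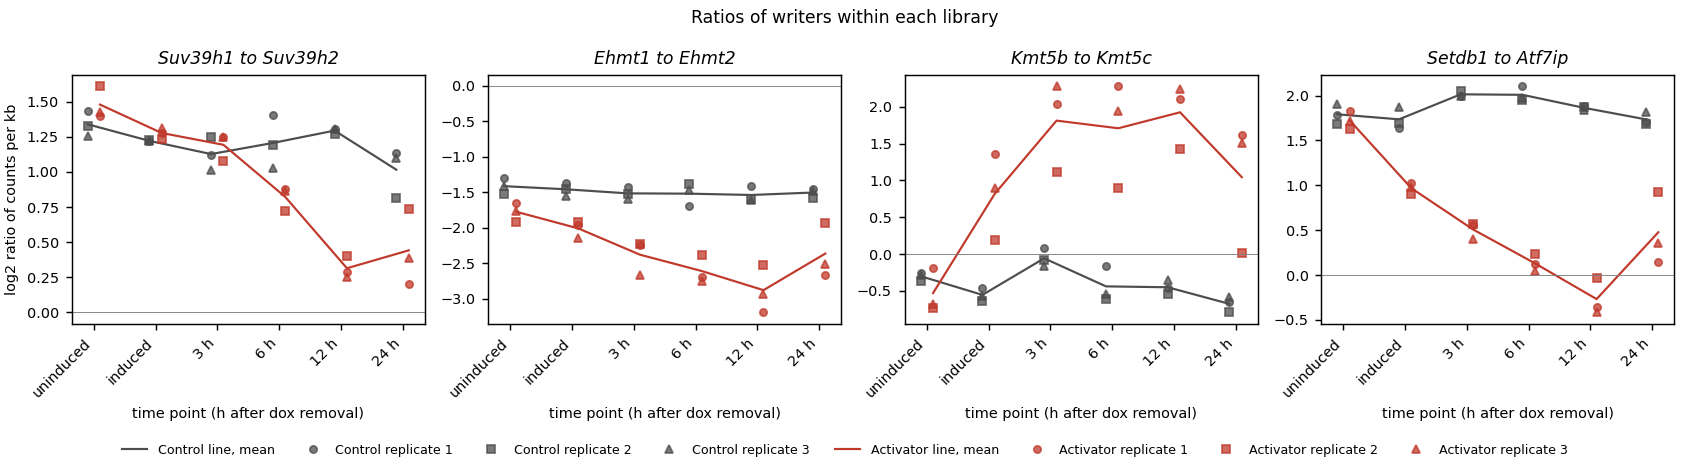
Log2 ratio of counts per kb for 4 pairs of the 10 genes within each library, in time order, with MSR-dCas9-Control in grey, MSR-dCas9-Activator in red, symbols for the 3 replicates and lines through the means. At 12 h the lines differ by −0.98 for Suv39h1 to Suv39h2, −1.34 for Ehmt1 to Ehmt2, 2.37 for Kmt5b to Kmt5c and −2.13 for Setdb1 to Atf7ip.

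Within the MSR-dCas9-Control line the 10 genes were compared between uninduced and later cells. Dox induces dCas9 at MSR in that line and was given for 24 h, so dox, dCas9 and time in culture cannot be told apart in it. None passed between uninduced and induced cells with edgeR (0 at an unadjusted p under 0.05 and 0 with DESeq2, beside 0.214% of all genes with edgeR, 7.23% at that p and 0.739% with DESeq2) or between uninduced cells and 24 h after removal (2 at an unadjusted p under 0.05, Suv39h1 at −0.15 and Trim28 at −0.20, and 0 with DESeq2, beside 0.788% of all genes with edgeR, 11.3% at that p and 2.45% with DESeq2). Fitted to the libraries of that comparison alone, Kmt5c was higher at 24 h (0.36) and Suv39h1, Trim28 and Kmt5a were lower (−0.17, −0.22 and −0.19), 1 and 3 of 10 beside 7.79% and 12.6% of all genes tested in that fit. Within the MSR-dCas9-Activator line, Suv39h1 (−0.37), Setdb1 (−0.95) and Kmt5c (−1.55) fell on 6 h of induction, 3 of 10 beside 28.0% of all genes that fell, and 0 rose, beside 32.9%.

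Since some of the 10 were lower before induction, the change from uninduced cells was also compared between the lines. By the difference of the changes, 3 genes fell more in the MSR-dCas9-Activator line after induction (17.7% of all genes) and 4, 5, 5 and 5 at 3, 6, 12 and 24 h (25.7%, 27.7%, 28.0% and 18.7%). Setdb1, Suv39h1 and Kmt5c were among them each time, with −1.72, −1.23 and −2.54 at 12 h, and Ehmt1 from 6 h on, with −1.03 at 12 h. Suv39h2 passed at 3 h (−0.45) and 6 h (−0.39), but at 12 h it was −0.12 with a 95% interval of −0.40 to 0.16, where the plain comparison of the lines gave −0.51. Kmt5a passed at 12 h (−0.67) and Ehmt2 at 24 h (−0.31). Trim28 rose more at 3 and 6 h (0.36 each, edgeR adjusted p = 0.0164 and 0.0156, beside 21.4% and 22.4% of all genes that did), but had −0.28 and −0.39 with mitochondrial scaling. Without replicate 3 none of the 10 passed after induction, 3 passed as lower at 6 h and 2 at 24 h, and without replicate 1 there were 1 after induction and 2 at 24 h.

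Between 12 and 24 h after dox removal some of the 10 genes rose in the MSR-dCas9-Activator line. The paper reports that the larger part of the cells of this line were apoptotic or dead by the last time point. The part of this cell death in the values at 24 h was not tested. Setdb1 rose by 0.76 (SE 0.145, edgeR adjusted p = 0.00028) and Kmt5c by 1.17 (SE 0.331, adjusted p = 0.00887), higher in 3 of 3 replicates, and Suv39h1 by 0.20 (adjusted p = 0.0382). These were 3 of 10, beside 17.5% of all genes. Ehmt2 and Trim28 fell by 0.34 and 0.33, 2 of 10 beside 19.5% of all genes. The rise was larger than in the MSR-dCas9-Control line for Setdb1 (0.86, edgeR adjusted p = 0.00463) and Suv39h1 (0.47, adjusted p = 0.0038), 2 of 10 beside 8.71% of all genes, while the difference of 0.93 for Kmt5c did not pass (adjusted p = 0.172). Without replicate 3 none of the 10 passed this test of the difference, without replicate 1 there was 1, and without replicate 2 there were 4. All of Suv39h1, Suv39h2, Setdb1, Ehmt1, Kmt5a and Kmt5c remained below the MSR-dCas9-Control line at 24 h, at 49.3%, 73.6%, 54.1%, 47.1%, 67.6% and 38.4% of its level.

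The time courses of the 10 genes were compared by Pearson's r of mean log2 CPM over the 12 groups, which share libraries and scaling among genes. Setdb1 and Kmt5c, which fell early and were higher at 24 h than at 12 h, had r = 0.98. Suv39h1, Ehmt1 and Kmt5a, which fell until 12 h, had r of 0.99 (Suv39h1 and Ehmt1), 0.96 (Suv39h1 and Kmt5a) and 0.97 (Ehmt1 and Kmt5a). These sets were not separate, as Suv39h1 also fell on induction and was higher at 24 h than at 12 h. Between the sets r ran from 0.73 (Kmt5a and Kmt5c) to 0.93 (Suv39h1 and Setdb1). Ehmt2 and Trim28 had r = 0.80, and Ehmt2 and Kmt5b r = −0.88. Suv39h2, lowest at 3 and 6 h, was nearest to Setdb1 among the 10 (r = 0.84).

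Among 13628 genes with a mean above 100 counts, the time course most like that of Kmt5c was Zfp386, followed by Taz and Zfp260 (r = 0.997 each), and most like Setdb1 were A630089N07Rik, Gm21844 and Zfp251 (r = 0.998, 0.997 and 0.996). The nearest to Atf7ip were Gm21926, Gm8066 and Zfp867 (r = 0.97 each). Suv39h1 was most like Pelp1, Ankrd27 and Umps (r = 0.996, 0.995 and 0.995), and Ehmt1 like Ckap2, Pds5a and Exo1 (r = 0.99 each). The nearest to Kmt5a were Ss18, Scarb1 and Spire1 (r = 0.99 each), and to Suv39h2 Pias2 (r = 0.98), Rnmt and Eif3a (r = 0.97 each). For Ehmt2 these were Ncapd2, Ppa2 and Naa35 (r = 0.95, 0.94 and 0.94), for Trim28 Fkbp1a, Gps1 and Gtpbp1 (r = 0.95, 0.95 and 0.94), and for Kmt5b Jmy, Tigd5 and Slc16a6 (r = 0.99, 0.98 and 0.97). With so few groups, in lines that differ in most genes, these values serve as a description.

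Other genes of the pathway were taken from lists of partners, readers, demethylases and Kmt5a ligases. Of 12 other H3K9 methyltransferases, partners and HUSH complex genes 10 were tested. At 12 h 5 were lower and 2 higher, beside 34.1% and 41.1% of all genes. Their median log2 fold change was −0.23 where all genes had 0.12. Mecom, a PRDM family gene, had the largest fall (−2.06, with a mean of 1887 normalised counts in the MSR-dCas9-Control line and 460.1 in the MSR-dCas9-Activator line), and Setdb2, a paralogue of Setdb1, had −1.10. Wiz, a zinc finger partner of Ehmt1 and Ehmt2, had −0.95. Morc2a, an ATPase that works with the HUSH complex, had the largest rise (1.16), and Tasor, a core HUSH subunit, was higher at 12 h (0.36) and 24 h (0.97). At 24 h 5 of the 10 were lower and 3 higher, beside 29.4% and 34.5% of all genes.

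Besides the largest rise and fall of each list, the pathway genes named, Setdb2, Wiz, Tasor, Cbx5, Cbx3, Cbx1 and Trp53bp1, were chosen after their values were seen. Readers are proteins that bind methylated H3K9 or H4K20. At 12 h 9 of 10 were lower and 1 higher, beside 34.1% and 41.1% of all genes. Their median of −1.01 was below that of the writers. The HP1 genes Cbx5, Cbx3 and Cbx1 had −1.55, −1.26 and −0.76. Trp53bp1, which binds H4K20 dimethylation at DNA breaks, had −1.40, and Cdyl2 had the largest fall (−1.63, 143 normalised counts in the MSR-dCas9-Control line and 46.1 in the MSR-dCas9-Activator line). L3mbtl1, a binder of low H4K20 methylation states, was the exception, with a mean of 15 normalised counts in the MSR-dCas9-Control line and 2718 in the MSR-dCas9-Activator line at 12 h (log2 fold change 7.49).

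Of 13 H3K9 and H4K20 demethylases, 6 were lower and 5 higher at 12 h, beside 34.1% and 41.1% of all genes. Phf8, which removes H4K20 monomethylation and H3K9 dimethylation, had −1.60 and Kdm7a 1.19. At 24 h 5 were higher and 2 lower, beside 34.5% and 29.4% of all genes. Subunits of the ubiquitin ligases that degrade Kmt5a changed sides with time under TMM scaling. At 3 h 5 of 8 were higher and none lower, beside 39.6% and 31.4% of all genes. The rises ran from 0.22 (Cul4b) to 0.47 (Cul4a). Mitochondrial scaling moved the median of all genes at 3 h from 0.16 to −0.48, and the signs of these rises under it are not given here. By 12 h only Cul4a was higher and 4 were lower (41.1% and 34.1% of all genes). By 24 h 7 were lower, beside 29.4% of all genes. At 12 h Cul4a, a scaffold subunit, had the rise (0.29), and Skp1a, an adaptor subunit, the largest fall (−1.10).

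Of 15 proliferation genes, 8 were higher and 3 lower at 3 h with TMM scaling, beside 39.6% and 31.4% of all genes. Their signs with mitochondrial scaling are not given here either. By 12 h this was 2 and 9 (41.1% and 34.1% of all genes). By 24 h 13 were lower and none was higher (29.4% and 34.5% of all genes). At 12 h Rrm2 had −2.10 and Mcm7 0.71. Their summed level at 24 h was 1860 to 2521 CPM in the MSR-dCas9-Activator line and 3651 to 3847 in the MSR-dCas9-Control line, while at 3 h the ranges overlapped (3743 to 4868 and 3924 to 4167). Setdb1 and Kmt5c rose between 12 and 24 h in the MSR-dCas9-Activator line. In the same interval 11 of the 15 proliferation genes fell there, beside 19.5% of all genes. The part of proliferation in the changes of the writers was not tested.

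**Figure D5:**
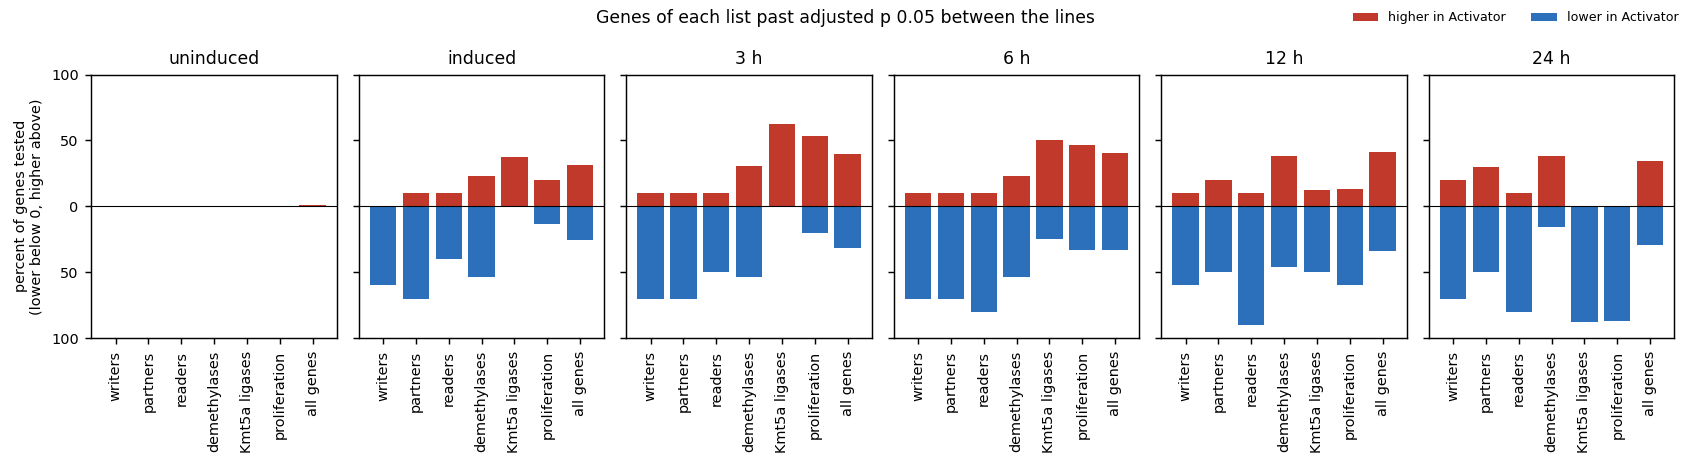
Percent of the genes tested in each list that were higher (red, above 0) or lower (blue, below 0) in the MSR-dCas9-Activator line at an edgeR adjusted p under 0.05, by time point, with all 28536 genes at the right of each panel. The writers show 6 or 7 of 10 lower from induction on, where 25.5% to 34.1% of all genes were lower.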

How the data were processed

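The 36 libraries hold RNA of MEF cells, 3 biological replicates in each of 12 groups, grouped by the line and time point in their labels. The authors trimmed paired reads of ribosome-depleted RNA with cutadapt, used STAR to map them to GRCm38, and took counts of genes and repeats from TEtranscripts. The deposited values are raw counts per gene and per repeat family, and the strand setting is not given in the sources used here. From these counts, 28536 of 54842 genes passed filterByExpr and were fitted with edgeR 4.0.16 (R 4.3.3, limma 3.58.1), by the quasi-likelihood test with TMM scaling, 12 groups and the replicate number as a block, as the study's own model holds the replicate. P-values were adjusted by the Benjamini-Hochberg method over all genes tested in a comparison. Standard errors were derived from the fold change and its F statistic, and 95% intervals span 1.96 of them. A normalised count is a count divided by its TMM effective library size relative to the mean of all libraries. Rows without a gene name (1, at most 0.00452% of counts) were left out, and 1561 repeat families were kept out of the fit. DESeq2 1.42.0, other scalings and left-out libraries were tried as alternatives, and the fit was tested on simulated data. That simulation changed few genes, up and down alike, in a single group. It cannot show how TMM scaling behaves where most genes differ, as they do here. Lengths and coordinates came from GENCODE M21, matched by 54409 genes. The 10 genes and all lists were chosen with earlier results of these data known. The genes named by rule are the 10, the largest rise and fall of each list at 12 h, the 3 genes most like each of the 10 and genes that share sequence with them. Setdb2, Wiz, Tasor, Cbx5, Cbx3, Cbx1 and Trp53bp1 fall outside this rule and were chosen after their values were seen. The edgeR p-values of the main fit rest on an estimate of spread between replicates that all 12 groups share, not on the compared groups alone. The replicates come from 1 line per effector, which the paper kept as a mixed culture. The p-values therefore do not cover variation between independently made lines. Lines that carry a repressor were not analysed here. A marker of another cell type that was first listed is not reported here.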

Additional observations from a re-analysis of the deposited data

Results flagged for a closer look

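The change from uninduced cells differed between the lines, by a test of the difference itself (edgeR, Benjamini-Hochberg adjusted), for 26 values, given here as the log2 change in the MSR-dCas9-Activator line minus that in the MSR-dCas9-Control line. For Suv39h1 it was −0.36 after induction and −0.51, −0.90, −1.23 and −0.77 at 3, 6, 12 and 24 h. For Setdb1 it was −0.95, −1.53, −1.78, −1.72 and −0.86 at the same times. For Kmt5c it was −1.75, −2.40, −2.55, −2.54 and −1.61. Ehmt1 passed from 6 h on, with −0.62, −1.03 and −0.80, and Suv39h2 at 3 and 6 h, with −0.45 and −0.39. Kmt5a passed at 12 h (−0.67) and Ehmt2 at 24 h (−0.31). Trim28 had 0.36 at 3 h and 0.36 at 6 h, which turned negative with mitochondrial scaling. From 12 to 24 h the difference was 0.47 for Suv39h1 and 0.86 for Setdb1. The lines also differ in the length of dox exposure, which cannot be told apart from the effector.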

How the results depend on the processing

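Several values for single genes changed sign with the scaling. Some of them had passed with TMM scaling, namely Atf7ip at 12 h, Ehmt2 at 3 and 6 h, and the difference in change of Trim28 at 3 and 6 h. Scaled to mitochondrial mRNAs, the MSR-dCas9-Activator against MSR-dCas9-Control value of Trim28 became −0.36 after induction, −0.43 at 3 h and −0.54 at 6 h, that of Ehmt2 −0.32, −0.53 and −0.60 at 3, 6 and 12 h, that of Atf7ip −0.62 and −0.24 at 6 and 12 h, and that of Kmt5b −0.54 at 12 h. The difference in change became −0.28, −0.39 and −0.55 for Trim28 at 3, 6 and 12 h, −0.64 for Ehmt2 and −0.69 for Atf7ip at 6 h, and induced against uninduced MSR-dCas9-Activator cells gave −0.52 for Ehmt2 and −0.46 for Trim28. That scaling moves the median of all genes, as given in the report. Leaving out a replicate, Kmt5a at 3 h ranged from −0.40 to 0.0086, the highest without replicate 2. The cause was not tested.

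The number of the 10 called changed as follows between the lines. The share of all genes called is not set beside the counts in this section. They describe only how the calls depend on the processing. Uninduced, DESeq2 called 3 lower. At 3 h, RLE, DESeq2 and a fit of the compared libraries alone each gave 2 higher, and mitochondrial scaling and the study's limits 0. At 6 h RLE and DESeq2 gave 3 higher, and plain library size, no filter, the compared libraries alone, mitochondrial scaling and the study's limits 0. At 12 h RLE and DESeq2 gave 3 higher, and plain library size, mitochondrial scaling and the study's limits 0. At 24 h mitochondrial scaling and the study's limits gave 0 higher. The study's limits gave 1, 2, 3 and 3 lower after induction and at 3, 6 and 24 h.

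For the difference in change, mitochondrial scaling gave 5, 8, 9 and 8 lower after induction and at 3, 6 and 12 h, and 0 higher at 3 and 6 h. The median of all genes under that scaling was −0.55, −0.69 and −0.61 at 3, 6 and 12 h. The study's limits gave 1, 2, 2 and 1 lower after induction and at 3, 6 and 24 h, and 0 higher at 3 and 6 h. DESeq2 gave 2 higher at 3, 6, 12 and 24 h, RLE 2 at 3, 12 and 24 h, plain library size 0 at 3 and 6 h, and the compared libraries alone 1 at 12 h and 2 at 24 h. From 12 to 24 h the compared libraries alone gave 1 higher and the study's limits 0. Within the MSR-dCas9-Activator line, induction lowered 5 with plain library size, 10 with mitochondrial scaling and 1 by the study's limits. With mitochondrial scaling the median of all genes in that comparison was −0.51. From 12 to 24 h there, plain library size gave 7 higher, the study's limits 1, and plain library size, mitochondrial scaling, the compared libraries alone and the study's limits 0 lower. In the MSR-dCas9-Control line at 24 h the compared libraries alone gave 1 higher and 3 lower.

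Leaving out single libraries or replicates gave, between the lines, 0 to 2 lower uninduced and 0 to 2 higher after induction and at 3, 6, 12 and 24 h. For the difference in change it gave 0 to 1 higher and 0 to 2 lower after induction, 0 to 2 higher at 3 h, 0 to 1 higher and 3 to 5 lower at 6 h, 0 to 1 higher at 12 h, 0 to 2 higher and 2 to 5 lower at 24 h, and 0 to 4 higher from 12 to 24 h. Within the MSR-dCas9-Activator line it gave 0 to 2 higher on induction, and 1 to 3 higher and 0 to 2 lower from 12 to 24 h.

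Replicates of the same number deviated together to a varying degree, with correlations of −0.015 to 0.485 over the 6 time points over 0.1 in 16 of 18 pairs (the exceptions were replicate 2 at 12 and 24 h), and 33 of 36 libraries were nearest to their own number in the other line. The labels do not say what a number marks, so this is a hint of pairing from the data and not from the design. Without the replicate block, 1 was higher between the lines at 24 h, 0 were higher in the difference in change at 3 and 6 h and 3 lower at 24 h, and 1 rose from 12 to 24 h in the MSR-dCas9-Activator line. With 3 replicates a group, exact permutation tests could not go below 0.1.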
